A study of Mus musculus with 18 samples.

Results

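Tumours labelled large intestine, from ApcMin/+ mice that carried 1 deleted Macrod2 allele (Macrod2-/+, called het) were compared with tumours of ApcMin/+ mice with both alleles (Macrod2+/+, called wt), restricted to tumours that lacked high Gata4, a transcription factor of the proximal small intestine. The comparison held 9 of the 18 sequenced tumours, 5 het and 4 wt. All mice were C57BL/6 males kept at the WEHI animal facility, and their age is not given in the sources used here. Every group carried the Min allele of Apc, also the controls, and 6 tumours of Macrod2-/- mice (hom) entered the same model only to help estimate the spread.

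The members were chosen from 1 measured value. A library was left out when Gata4 exceeded 100 CPM, its count scaled to the plain library total, which removed wt 1 with 166 and wt 2 with 153. The kept wt tumours held 0.290 to 30.7 and the het tumours 2.12 to 39.8, and the highest kept library of the model was a hom tumour at 46.1. The het tumour 4 was labelled small intestine and was left out by its label. Gata4 and genes of the small intestinal programme are therefore only described, without a test. The choice of tumours used Gata4 alone, which is itself a gene of that programme.

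The titles number 1 tumour for each mouse, so p-values measure the spread between these tumours. Whole resected tumours were used, which hold stroma and immune cells beside the epithelium, so fewer cells of a type and less RNA per cell cannot be told apart in any value below. The part of Macrod2 that was deleted is not given in the sources used here. Library totals ran from 13529204 to 18887269 counts. Epithelial markers were high in all 9 tumours, with Epcam at 2600 to 3762 CPM (from here on scaled by TMM factors). Of the large intestinal markers, Car1 lay between 0.053 and 6.69 CPM and Hoxb13 between 0 and 0.282 CPM, while the proximal gene Onecut2 was at 161 to 259 CPM. These marker levels go against the label of large intestine, so the site of the tumours is in doubt and is given here only as labelled. In wt 3, the ribosomal RNA precursor Rn45s took 27.0% of all counts (Wilson 95% interval for counting error 26.97% to 27.01%), against at most 0.725% in any other library.

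MACROD2 is a macrodomain protein that removes single ADP-ribose units from proteins, a mark that PARP enzymes place at sites of DNA damage among other targets. Mice with the Min allele make a truncated APC protein, and intestinal adenomas grow where the second copy is lost and beta-catenin signalling is left on. The title of the study names haploinsufficiency of MACROD2, chromosome instability and tumour growth, so the questions were whether losing 1 copy was visible in tumour RNA, in damage repair and growth genes, and in the balance between chromosomes.

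Promoter sequences are shown for the lists of genes in which a known regulatory element can be read directly, the interferon response and the folding machinery of the endoplasmic reticulum (ER). Interferon-stimulated genes carry the interferon-stimulated response element, searched on both strands as TTTC, any 2 bases and TTTC again. It was found in 23 of the 39 listed interferon genes with a RefSeq promoter window, 59%, and in 3.99% of all 27025 genes with such a window of 300 bases. The ER stress response element, searched on both strands as CCAAT, any 9 bases and CCACG, was found in 8 of 23 folding genes with a window, 34.8%, and in 0.137% of all genes with a window. Below are windows from RefSeq on GRCm38.p6, written 5′ to 3′ on the gene's strand, with each match in capitals. Rsad2 lies at chr12:26456403-26456702 on the minus strand, Ifit3 at chr19:34583279-34583578 on the plus strand and Irgm1 at chr11:48871371-48871670 on the minus strand. They are 3 of the 4 interferon genes with a match and the smallest p in this comparison. Creld2 at chr15:88819396-88819695 on the plus strand and Hsp90b1 at chr10:86705395-86705694 on the minus strand stand for the folding genes.
Rsad2: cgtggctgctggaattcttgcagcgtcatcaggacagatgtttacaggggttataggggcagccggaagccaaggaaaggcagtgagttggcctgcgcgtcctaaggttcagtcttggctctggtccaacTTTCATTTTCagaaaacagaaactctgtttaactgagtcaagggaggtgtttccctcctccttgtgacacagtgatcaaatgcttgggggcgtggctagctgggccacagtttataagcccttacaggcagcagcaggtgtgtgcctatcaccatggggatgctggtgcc
Ifit3: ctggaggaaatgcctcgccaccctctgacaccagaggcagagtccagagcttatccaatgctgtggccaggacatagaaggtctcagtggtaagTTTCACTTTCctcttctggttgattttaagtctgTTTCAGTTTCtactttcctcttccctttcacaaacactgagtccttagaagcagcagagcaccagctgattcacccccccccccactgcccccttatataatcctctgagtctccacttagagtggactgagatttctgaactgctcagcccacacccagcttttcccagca
Irgm1: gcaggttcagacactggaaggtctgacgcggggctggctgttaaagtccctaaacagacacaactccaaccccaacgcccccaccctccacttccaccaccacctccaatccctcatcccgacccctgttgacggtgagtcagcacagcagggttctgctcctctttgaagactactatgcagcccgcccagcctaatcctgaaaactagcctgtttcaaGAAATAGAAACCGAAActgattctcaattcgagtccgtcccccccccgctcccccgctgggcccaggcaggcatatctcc
Creld2: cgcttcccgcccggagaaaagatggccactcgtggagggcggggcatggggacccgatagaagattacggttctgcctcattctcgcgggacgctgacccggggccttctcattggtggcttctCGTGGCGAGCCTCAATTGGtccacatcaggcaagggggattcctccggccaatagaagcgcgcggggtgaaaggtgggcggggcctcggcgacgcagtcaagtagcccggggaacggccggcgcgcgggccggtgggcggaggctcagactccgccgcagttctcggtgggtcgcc
Hsp90b1: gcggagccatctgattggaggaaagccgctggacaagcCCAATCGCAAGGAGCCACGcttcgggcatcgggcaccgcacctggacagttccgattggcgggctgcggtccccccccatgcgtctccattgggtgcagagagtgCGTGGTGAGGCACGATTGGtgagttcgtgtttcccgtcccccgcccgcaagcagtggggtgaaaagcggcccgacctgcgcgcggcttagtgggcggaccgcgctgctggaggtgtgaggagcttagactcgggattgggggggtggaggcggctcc
Rsad2 and Creld2 each held 1 match, and the other 3 windows held 2 matches each, which overlap in Irgm1. A match describes letters in the window and shows no binding.

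Macrod2 (mm10 chromosome 2, 140395309 to 142392966, plus strand) was read first, as a check of the labels. Its level was 3.01, 3.67, 3.24 and 4.06 CPM in wt 3, 4, 5 and 6. The het tumours had 1.64, 1.91, 1.89, 2.25 and 3.43 CPM in het 1, 2, 3, 5 and 6. Thus 4 of 5 het tumours lay below all wt tumours and het 6 lay inside the wt range. The mean fell from 3.49 ± 0.467 (SD, n = 4) to 2.22 ± 0.706 (SD, n = 5), 63.6% of the wt mean, with a two-sided exact permutation p of 0.0317. The hom tumours, which share the wt tumours as reference, had 0 to 0.412 CPM, 4.62% of the wt mean. The gene was sparsely read, with 32 to 71 counts in wt and 32 to 61 in het libraries. In the model over all genes the difference was -0.65 on the log2 scale (95% interval -1.52 to 0.21), and edgeR's quasi-likelihood test gave an adjusted p of 0.632 after Benjamini-Hochberg adjustment. Leaving out 1 of the 9 tumours at a time gave a difference in the Macrod2 level of -1.57 to -1.08 CPM. The exact permutation p was 0.0286 without het 6 and above 0.05 without any other tumour, up to 0.107 without wt 6. Flrt3, a membrane adhesion protein encoded inside a Macrod2 intron on the other strand, had 21.5 to 44.4 CPM in wt and 24.3 to 40.1 CPM in het tumours, and the groups overlapped.

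Across the 14392 genes tested, no gene passed an adjusted p of 0.05 by edgeR's quasi-likelihood test, 0% of those tested, and the smallest adjusted p was 0.619. At an unadjusted p below 0.05, edgeR counted 1055 genes (7.33%), where 719.6 would be the average number with no difference anywhere. With the 9 tumours alone in the model, it counted 729 of 13982 genes tested. Of the 1055, 620 were higher in het tumours (4.31% of genes tested) and 435 lower (3.02%), the shares to set beside the list counts below. With library totals in place of TMM factors the same split was 1486 higher and 95 lower. DESeq2 called 1 gene, Cdx2, and limma-voom called 0. All het tumours lay above all wt tumours for 96 genes (0.667%) and below them for 102 (0.709%), 198 genes or 1.38% in all. A random split of 5 against 4 tumours would give a share of 0.00794 of genes in each direction, so separate groups alone mark no difference. The median log2 fold change over all genes was 0.001, and 50.2% of genes were higher in het tumours. For the 10610 genes with a mean log2 CPM above 3, the median interval reached 0.362 to either side on the log2 scale.

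Cdx2 had the smallest p of all genes. It encodes the homeobox factor that sets intestinal identity and limits tumour growth in the distal bowel of mice. Its level was 103, 75.6, 73.0 and 89.6 CPM in wt 3, 4, 5 and 6. In het 1, 2, 3, 5 and 6 it was 149, 120, 160, 128 and 117 CPM. Every het tumour lay above every wt tumour, although het 6 exceeded wt 3 by little. The means were 85.2 ± 13.7 CPM (SD, n = 4) and 135 ± 18.7 CPM (SD, n = 5), a 1.58-fold difference (log2 0.66, SE 0.12, 95% interval 0.40 to 0.92). edgeR gave an unadjusted p of 6.09e-05 and an adjusted p of 0.619, and DESeq2 an adjusted p of 0.00285 for a Cdx2 log2 fold change of 0.66. The 6 hom tumours, which share the wt tumours as reference, lay between 111 and 129 CPM. Reads were ample, with 1009 to 1568 counts in wt and 2085 to 2895 in het libraries. The choice of tumours bears on this value: wt 1 and wt 2, left out for their Gata4, held 137 and 100 CPM of Cdx2, and with both kept the difference was 0.44 and the adjusted p 0.999 by edgeR.

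The other 9 genes with the smallest p among those higher in het tumours formed no common pathway list. Itpka, an inositol trisphosphate kinase, was at 0.524 to 1.79 CPM in wt and 2.25 to 4.82 CPM in het tumours (log2 1.58). Asb8, a SOCS box protein, was at 28.9 to 31.4 against 36.7 to 41.4 CPM (log2 0.37). Necap2, which serves endocytosis, was at 47.5 to 62.8 against 63.5 to 82.0 CPM (log2 0.41). In these 3 genes and in Serhl, a serine hydrolase relative (23.6 to 28.9 against 29.4 to 43.1 CPM), the groups did not overlap. Per1, a core repressor of the circadian clock, was at 8.62 to 16.1 CPM in wt and 13.4 to 37.1 CPM in het tumours, with the highest levels in het 1 and het 2. The groups also overlapped for Cml1 (log2 1.24), Lrig3 (log2 0.87), the sugar kinase Shpk (log2 0.82) and the secreted protease Adamts15 (log2 0.82). For all of the 20 genes named by smallest p, in both directions, the adjusted p by edgeR was 0.619.

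On the lower side, 5 of the 10 genes with the smallest p were non-polyadenylated RNAs or histone genes that stood high in wt 3 alone. Rn45s reached 354400 CPM in wt 3, and the other 8 tumours had 2253 to 7354 CPM. Rpph1, the RNA of RNase P, was at 295 CPM in wt 3 and 1.01 to 2.55 CPM elsewhere, and Rmrp, the RNA of RNase MRP, at 267 CPM and 0.824 to 2.51 CPM. Without wt 3 the log2 difference of Rmrp turned from -5.03 to 0.83. The library that held the most ribosomal RNA thus also held the most of these short RNAs, and whether its preparation differed was not tested. Hist1h4h and Hist1h4d, both of histone H4, were at 8.46 and 11.2 CPM in wt 3 and at most 2.02 and 1.20 CPM elsewhere.

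The other 5 genes on the lower side did not turn on wt 3. Paip1, a cofactor of the poly(A)-binding protein in translation, was at 110, 119, 116 and 108 CPM in wt and 94.5, 88.9, 90.0, 98.5 and 96.4 CPM in het tumours, a log2 difference of -0.27 (95% interval -0.43 to -0.11). Ap3s1, a subunit of the AP-3 vesicle coat, was at 47.6, 46.2, 39.7 and 43.2 CPM in wt and 36.1, 34.4, 32.4, 34.1 and 33.2 CPM in het tumours (log2 -0.38). Both genes had tight, separate groups. The hom tumours had 93.8 to 107.5 CPM of Paip1 (log2 -0.18 against wt). Their Ap3s1 level was 34.9 to 47.6 CPM, near that of wt tumours (log2 -0.03). Psip1, a chromatin reader known as LEDGF, was at 69.0 to 100.4 against 49.0 to 64.6 CPM (log2 -0.49), also without overlap. Nbn, the nibrin subunit of the complex that senses double-strand breaks, was at 27.5 to 42.2 CPM in wt and 21.4 to 31.5 CPM in het tumours (log2 -0.49), with het 6 inside the wt range. Tmem14a, a small membrane protein, was at 12.9 to 17.6 against 8.75 to 13.2 CPM, and het 5 was the het tumour inside the wt range.

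**Figure D1:**
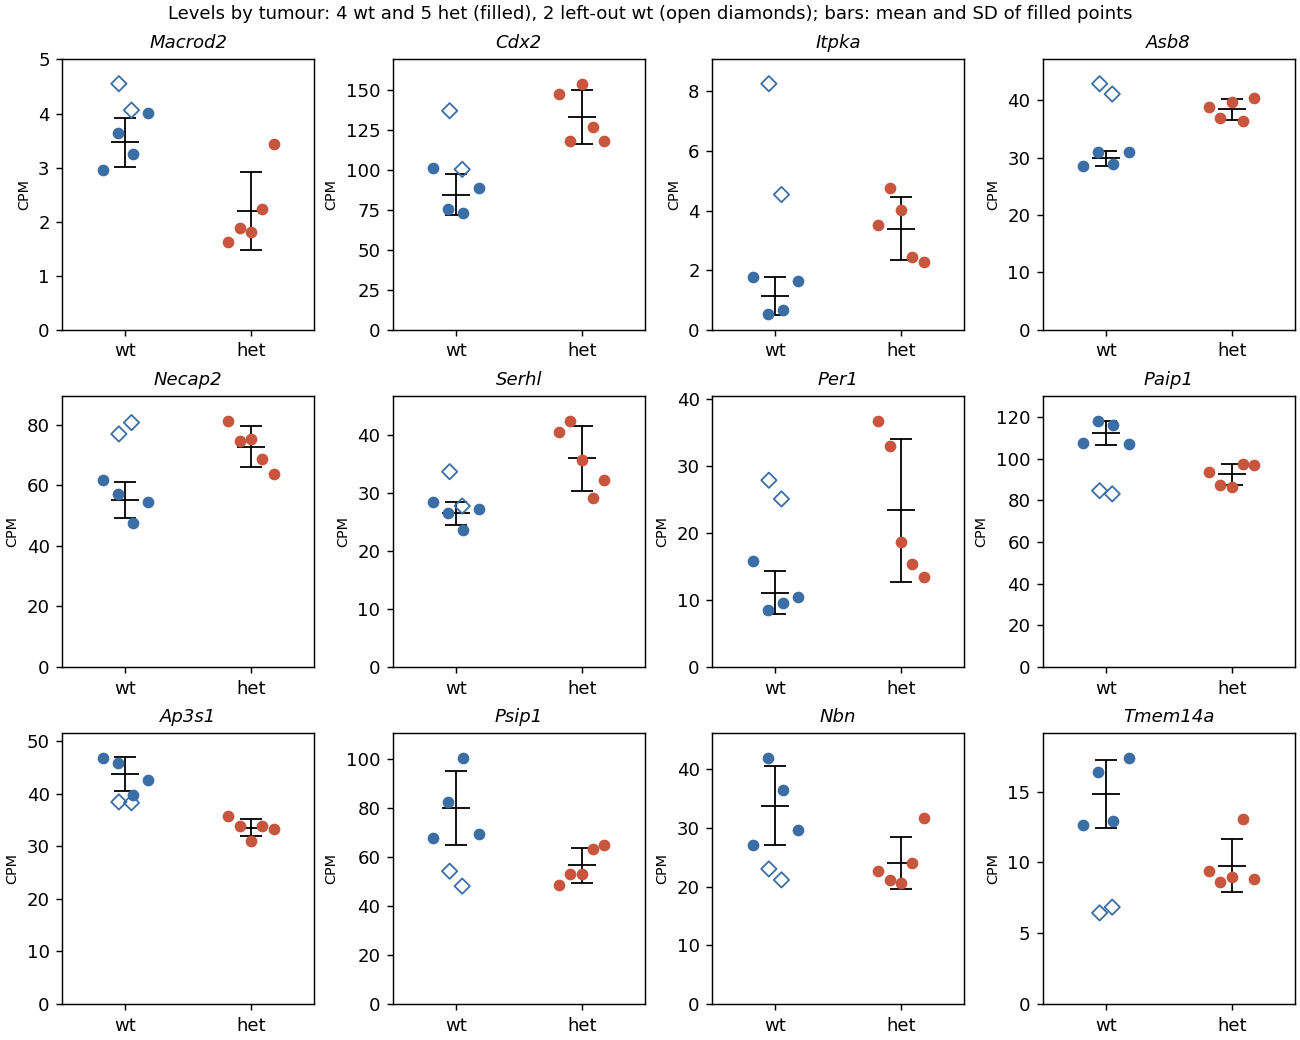
Levels of 12 genes by tumour in CPM, scaled over all 18 libraries, on axes that start at 0: filled points are the 4 wt and 5 het tumours, bars their mean and SD, and open diamonds the left-out wt 1 and wt 2. For Asb8, Necap2 and Paip1 the open diamonds lie on the het side of the filled wt points, whereas for Macrod2 they lie above all het tumours.

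The left-out wt tumours were set beside these genes, which the plot of levels by tumour shows. Of the 198 genes whose 5 het and 4 wt tumours did not overlap, 15 still did not overlap when wt 1 and wt 2 were added, 9 higher and 6 lower. Among the 20 named genes 9 had separate groups, and Hist1h4d and Ap3s1 were the 2 that kept them against 6 wt tumours. In 7 of the 10 genes named as higher, both left-out wt tumours lay above all 4 kept wt tumours, and in 7 of the 10 named as lower both lay below them. In 10 of the 20 the log2 fold change was over 1.5 times smaller with them, and 19 of 20 kept their sign. At an unadjusted p below 0.05, 174 genes were shared, 16.5% of the 1055 counted with 4 wt tumours and 42.8% of the 407 counted with 6.

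**Figure D2:**
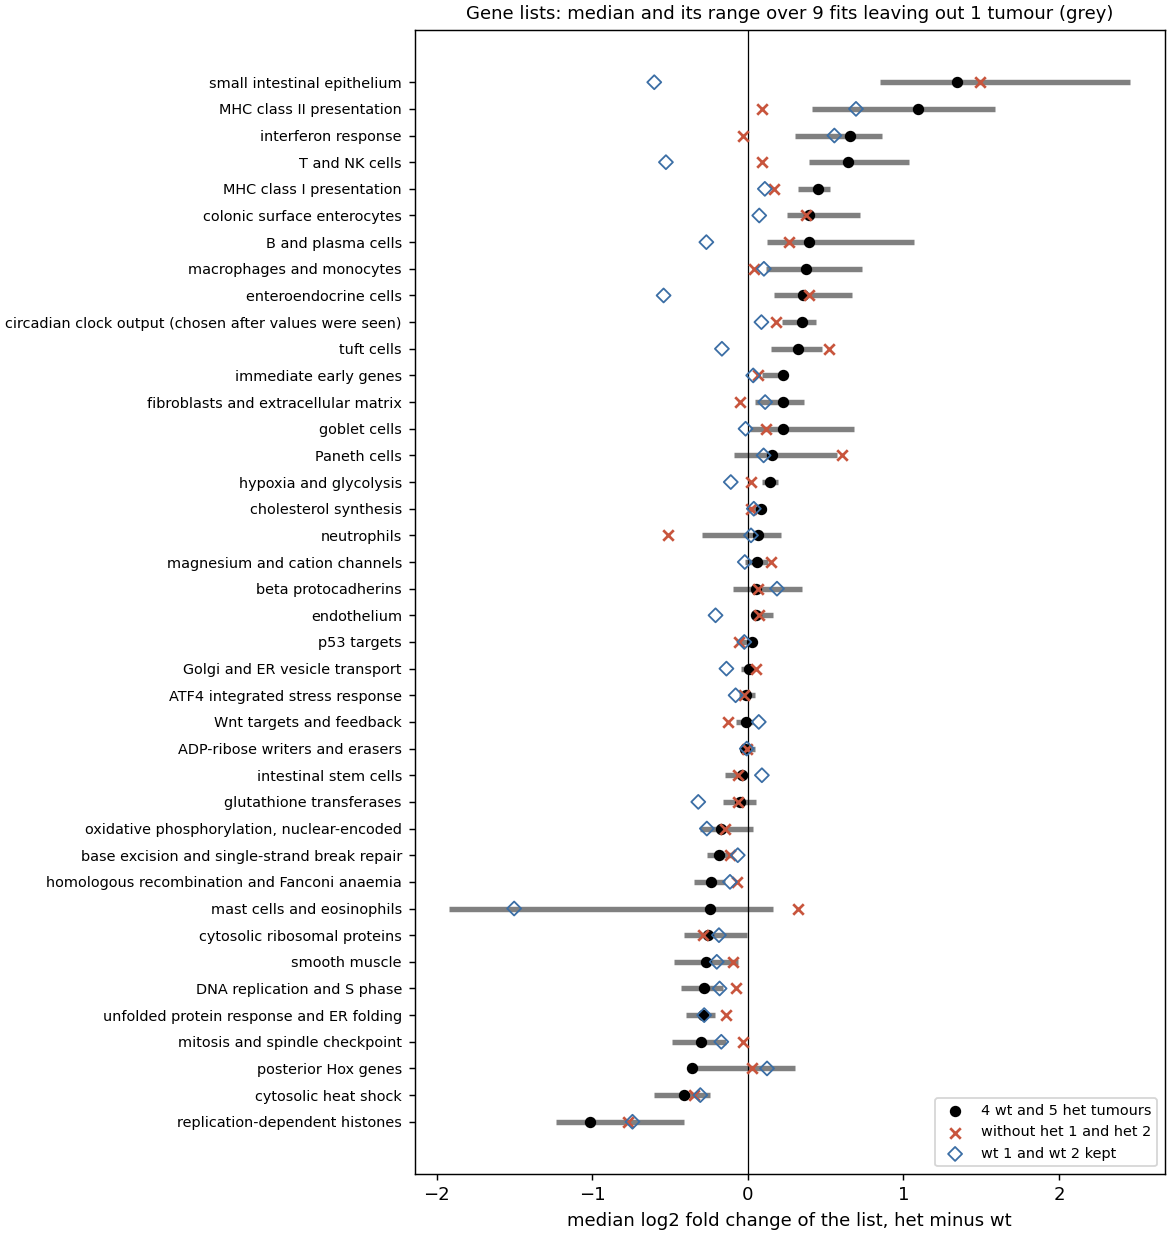
Median log2 fold change (het minus wt) of 40 gene lists, with black points for the 9 tumours, grey bars for the range over 9 fits that each leave out 1 tumour, red crosses for the fit without het 1 and het 2, and open diamonds for the fit with wt 1 and wt 2. The interferon median of 0.66 falls to -0.03 at the red cross, and the small intestinal median of 1.35 turns to -0.60 at the diamond.

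Interferons are secreted alarm proteins that switch on antiviral and antigen-presenting genes in neighbouring cells. Of 57 listed interferon response genes tested, 54 were higher and 3 lower in het tumours, with a median log2 fold change of 0.66 against 0.001 for all genes. At an unadjusted p below 0.05 by edgeR, 7 were higher and 0 lower, and 0 had an adjusted p below 0.05. Of all genes tested, 4.31% were higher and 3.02% lower at that unadjusted p. The highest of the 9 tumours was het 1 for 32 genes and het 2 for 17, and the lowest was het 6 for 22 and wt 4 for 20. The mean centred log2 level over the list, which sets each gene to 0 at its mean of the 9 tumours, was 1.32 in het 1 and 0.94 in het 2, but -0.91 in het 6. In wt 3, 4, 5 and 6 it was 0.23, -0.91, -0.49 and 0.00. So the het tumours ran from about the level of the lowest wt tumour to above all wt tumours. Without het 1 the median was 0.305, and without het 1 and het 2 it was -0.03.

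Members of the list did not all follow the same tumours. Cxcl9, a chemokine that draws T cells, was at 39.3 and 76.9 CPM in het 1 and het 2, at 2.29, 0.470 and 0.506 CPM in het 3, 5 and 6, and at 0.749 to 7.89 CPM in wt tumours. Without het 1 and het 2 its log2 difference turned from 3.10 to -1.36. Rsad2, the antiviral enzyme viperin whose promoter is shown above, had another order, with 24.0, 8.22, 4.01, 15.2 and 2.19 CPM in het 1, 2, 3, 5 and 6 and 8.08, 0.749, 1.37 and 3.37 CPM in wt 3, 4, 5 and 6 (log2 1.68). Its level was high in het 5, which had little Cxcl9. Irgm1, a GTPase of cell-autonomous immunity, reached 107 and 130 CPM in het 1 and het 2 and 32.1 to 47.6 CPM in the other 7 tumours. Ifit3, an antiviral binding partner of Ifit1, reached 50.5 CPM in het 1 and 3.07 to 16.7 CPM elsewhere.

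Of the 57 genes 1 had separate groups, in a data set where 0.667% of all genes tested were higher without overlap. This gene, Oasl1, a 2-5A synthetase relative, was at 53.1, 41.4, 37.0 and 52.0 CPM in wt and 91.7, 61.9, 84.9, 61.9 and 55.8 CPM in het tumours (log2 0.64, unadjusted p of 0.0109 by edgeR, adjusted p 0.619). The lowest het tumour exceeded the highest wt tumour by little. The left-out wt 1 and wt 2 held 80.4 and 120.5 CPM of Oasl1, and with both kept the log2 difference was 0.10 and the groups overlapped. Cmpk2, a nucleotide kinase beside Rsad2, was at 3.82 to 24.9 CPM in wt and 7.30 to 47.9 CPM in het tumours (log2 1.28). The chemokine Cxcl11 was below 1 CPM in all 9.

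**Figure D3:**
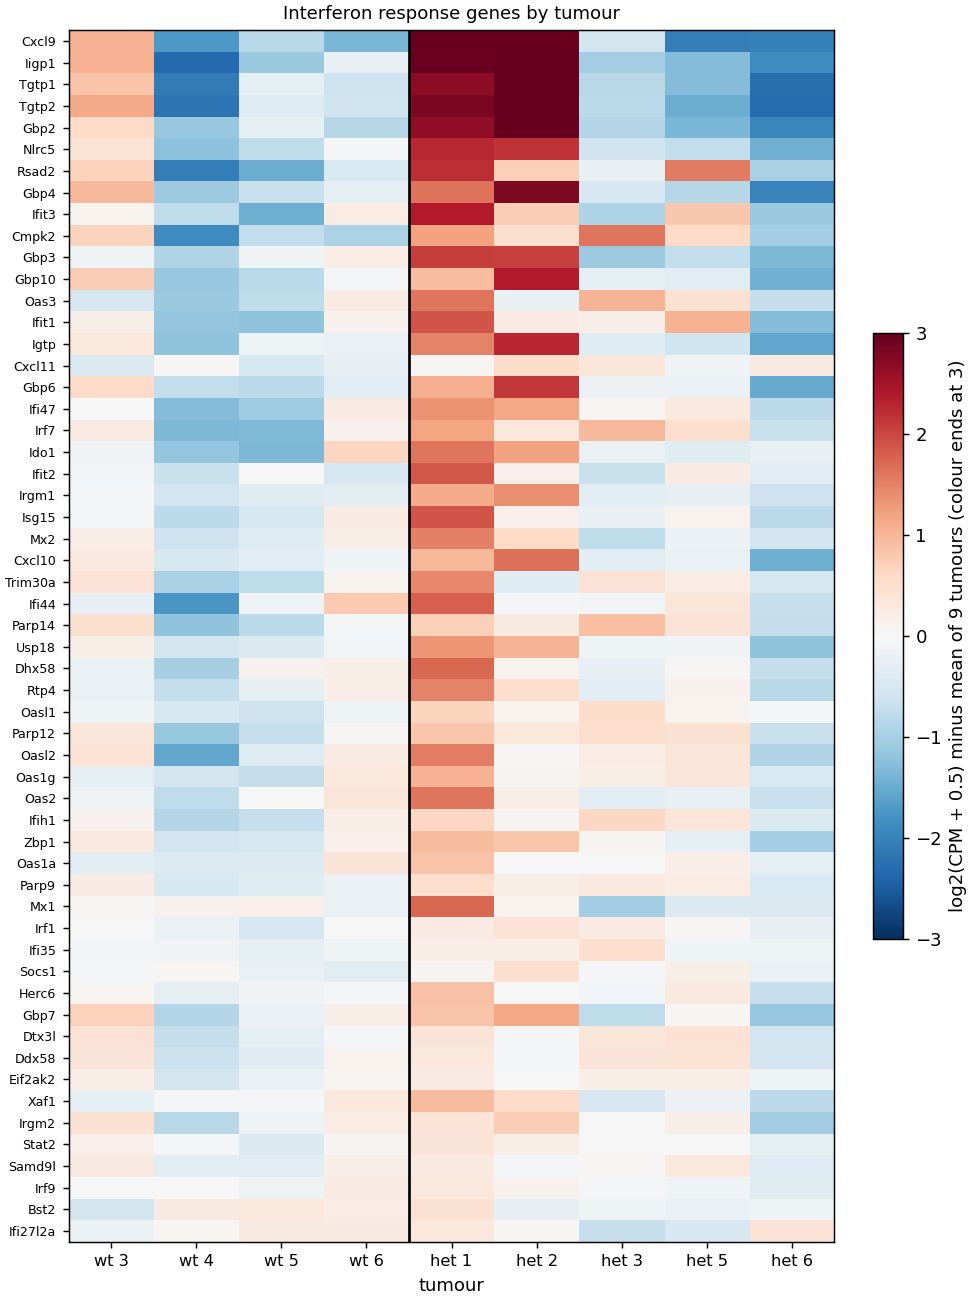
Levels of 56 of the interferon response genes (rows, ordered by log2 fold change) in 4 wt and 5 het tumours (columns), as log2(CPM + 0.5) minus the mean of the 9 tumours, with colour ending at 3. Het 1 and het 2 are red in most rows, and wt 4 and het 6 are blue in most rows.

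Antigen presentation genes were also higher on balance. Class I molecules show peptides of the cell's own proteins, and 15 of 16 tested class I genes were higher in het tumours (median 0.45, 2 at unadjusted p below 0.05). Het 1 was the highest tumour for 8 of these genes, het 3 for 5 and het 2 for 1. H2-K1, a class I heavy chain, was at 454 to 601 CPM in wt and 503 to 947 CPM in het tumours (log2 0.46), and the immunoproteasome subunit Psmb10 at 43.6 to 65.6 against 62.8 to 93.4 CPM (log2 0.45). All 9 tested class II genes were higher (median 1.09, 1 at unadjusted p below 0.05). H2-Aa, a class II chain, was at 9.05 to 30.7 CPM in wt tumours, 104 CPM in het 1 and 12.7 to 32.3 CPM in the other het tumours. For 7 of the 9 class II genes het 1 was the highest tumour, and the class II median was 0.41 without het 1. Without het 1 and het 2 the class II median was 0.09 and the class I median 0.17. With wt 1 and wt 2 kept, these medians were 0.695 and 0.11.

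Leucocyte lists differed in which tumours stood highest. For macrophages, 22 of 25 tested markers were higher in het tumours (median 0.37, 0 at unadjusted p below 0.05), and the list level ran from -0.81 in wt 5 to 0.57 in wt 6 and from -0.48 in het 6 to 0.61 in het 1. The macrophage median ran from 0.12 without wt 5 to 0.74 without wt 6, with 0.15 without wt 4 and 0.23 without het 1. It was 0.04 without het 1 and het 2 and 0.10 with wt 1 and wt 2 kept. The macrophage receptor Csf1r was at 4.12 to 9.09 CPM in wt and 4.10 to 11.4 CPM in het tumours. For T and NK cells, 15 of 20 were higher (median 0.64, 1 at unadjusted p below 0.05), yet levels were low, with Cd8a at 0.0749 to 1.31 CPM in wt and 0.0562 to 2.05 CPM in het tumours. Gzma, a cytotoxic granule protease, was at 1.35 to 7.52 against 1.35 to 17.8 CPM. With wt 1 and wt 2 kept, the T and NK median was -0.53. It ran from 0.39 without wt 4 to 1.04 without wt 6, with 0.41 both without wt 5 and without het 2, and was 0.09 without het 1 and het 2. For B and plasma cells 7 of 8 were higher (median 0.39), and the list was highest in het 5 (0.86) and wt 6 (0.72). Its median ran from 0.125 without wt 5 to 1.07 without wt 6, with 0.17 without wt 4, 0.21 without het 5 and 0.65 without het 6, and turned to -0.27 with wt 1 and wt 2 kept. For neutrophils 10 of 17 were higher (median 0.06), with het 2 the highest tumour at 1.17, and the median turned to -0.30 without het 2. How much of the interferon and presentation values came with leucocyte content was not tested.

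Genes of cell growth lay on the other side. Of 49 tested genes of DNA replication, 0 were higher and 49 lower in het tumours (median -0.28). By edgeR, 3 of them had an unadjusted p below 0.05, beside 3.02% of all genes tested, and 0 an adjusted p below 0.05. Pold3, a subunit of replicative polymerase delta, was at 113, 197, 188 and 153 CPM in wt and 80.2, 84.7, 123, 125 and 116 CPM in het tumours, a log2 difference of -0.62 (95% interval -1.05 to -0.19). Het 3, 5 and 6 reached just above wt 3, so the groups overlapped. Gins3, of the helicase that opens DNA, was at 7.89 to 14.4 against 4.31 to 10.8 CPM (log2 -0.63), and Pole, of polymerase epsilon, at 60.1 to 88.0 against 45.5 to 72.9 CPM (log2 -0.32). The lowest tumour was het 1 for 47 of the 49 genes, and the highest was wt 4 for 30 and wt 5 for 12. The replication median was -0.16 without wt 4, -0.18 without wt 5, -0.16 without het 1 and -0.43 without het 6, and -0.18 with wt 1 and wt 2 kept.

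Mitosis genes were also lower on balance. Of 54 tested, 53 were lower in het tumours (median -0.30), with 0 at an unadjusted p below 0.05 in either direction. Here wt 5 was the highest tumour for 36 genes and wt 4 for 12, and het 1 was the lowest for 40. Mki67, the proliferation antigen Ki-67, was at 272, 420, 421 and 307 CPM in wt and 161, 182, 280, 266 and 397 CPM in het tumours (log2 -0.47, 95% interval -1.06 to 0.14). For Mki67, het 6 lay among the highest wt tumours and het 1, 2 and 5 below all wt tumours. Mad2l1, of the spindle checkpoint, was at 97.0 to 179 against 69.9 to 144 CPM (log2 -0.52). The mitosis median was -0.14 without wt 5, -0.17 without het 1 and -0.49 without het 6, and -0.17 with wt 1 and wt 2 kept. Without het 1 and het 2 the medians were -0.03 for mitosis and -0.08 for replication. Those 2 tumours thus held the highest interferon levels and the lowest growth gene levels.

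DNA repair genes, the lists nearest to the known role of MACROD2, were lower on balance. Homologous recombination and Fanconi anaemia genes mend broken and crosslinked DNA, and 39 of 40 tested were lower in het tumours (median -0.24, 2 lower at unadjusted p below 0.05, beside 3.02% of all genes tested). The median was -0.15 without wt 5, -0.07 without het 1 and het 2 (14 of 40 higher) and -0.115 with wt 1 and wt 2 kept (10 higher). The 2 genes were Nbn, given above, and Rbbp8, which trims broken ends, at 54.4 to 75.1 CPM in wt and 48.5 to 58.0 CPM in het tumours (log2 -0.28). In base excision and single-strand break repair 17 of 24 were lower (median -0.18), 3 of them at unadjusted p below 0.05. This median was -0.10 without wt 4, -0.11 without het 1 and het 2 and -0.065 with wt 1 and wt 2 kept. Polb, the gap-filling polymerase of base excision repair, was at 31.4, 51.4, 40.1 and 39.8 CPM in wt and 24.3, 27.1, 25.4, 29.4 and 37.3 CPM in het tumours (log2 -0.50, unadjusted p 0.0054, adjusted p 0.619 by edgeR). Here 4 of 5 het tumours lay below all wt tumours, and het 6 did not. The replication list moved with both repair lists, with wt 4 and wt 5 high and het 1 low, and its part in the repair values was not tested.

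The writers and erasers of ADP-ribose were split. Of 27 tested, 13 were higher and 14 lower (median -0.02, 1 higher and 3 lower at unadjusted p below 0.05). Parp1, the main damage-activated writer, was at 98.4, 119, 131 and 97.0 CPM in wt and 71.2, 82.9, 84.2, 92.6 and 108 CPM in het tumours (log2 -0.34), with het 6 alone inside the wt range. Parp2, its partner, was at 49.2 to 74.0 against 38.7 to 59.2 CPM (log2 -0.39). The hydrolase Nudt16 was at 9.22 to 12.5 against 9.38 to 22.2 CPM (log2 0.58), and Art3 was at 0.846 to 4.83 against 0.514 to 1.24 CPM. Targets of p53, the guardian factor of damaged cells, were split, with 13 of 25 higher (median 0.03). Its target Cdkn1a, a cell-cycle inhibitor, was at 130 to 186 CPM in wt and 159 to 249.5 CPM in het tumours (log2 0.43), with het 1, 2 and 3 above all wt tumours.

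Protein folding genes were lower on balance. The unfolded protein response raises chaperones of the ER, and 22 of 29 tested genes were lower in het tumours (median -0.29). At an unadjusted p below 0.05 by edgeR, 7 were lower and 0 higher, beside 3.02% and 4.31% of all genes tested. Creld2, an ER folding factor whose promoter is shown above, was at 74.2, 218, 108 and 126.2 CPM in wt and 44.0, 60.8, 96.5, 83.6 and 120.5 CPM in het tumours (log2 -0.70). Manf, a secreted ER stress protein, was at 209 to 553 against 144 to 310 CPM (log2 -0.65). Hsp90b1, the ER form of HSP90, was at 1216 to 1966 CPM in wt tumours, at 666 and 700 CPM in het 1 and het 2 and at 1330 to 1397 CPM in the other het tumours. Spcs2, of the signal peptidase, was at 163 to 277 against 125 to 180 CPM (log2 -0.45), and Tram1, of the translocon, at 188 to 228 against 146 to 196 CPM (log2 -0.28). Wt 4 was the highest tumour for 19 of the 29 genes, and without het 1 and het 2 the median was -0.14.

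Cytosolic chaperones, which fold proteins outside the ER, were also lower on balance. Of 22 tested heat shock genes, 20 were lower in het tumours (median -0.41). At an unadjusted p below 0.05 by edgeR, 9 were lower and 0 higher, beside 3.02% and 4.31% of all genes tested. Hsp90aa1, the inducible cytosolic HSP90, was at 250.3, 726, 457 and 354 CPM in wt and 178, 206, 285, 302 and 375 CPM in het tumours (log2 -0.73). Dnaja1, a co-chaperone of HSP70, was at 119 to 291 against 94.6 to 144 CPM (log2 -0.67), and Hspa8, the constitutive HSP70, at 1587 to 3692 against 1167 to 2389 CPM (log2 -0.61). Wt 4 was the highest tumour for 17 of 22 genes. The median kept its sign in all 21 alternative fits and was -0.24 without wt 4. Genes of the ATF4 stress response were split, 11 higher and 14 lower (median -0.01).

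Within this comparison, the medians of the respiratory chain and ribosome lists, genes of energy supply and protein synthesis, rested on wt 4. Of 75 nuclear-encoded respiratory chain genes, 61 were lower in het tumours (median -0.18, 0 at unadjusted p below 0.05), and wt 4 was the highest tumour for 66. Without wt 4 the median was 0.03, and without wt 3 it was -0.31. Of 72 cytosolic ribosomal protein genes, 69 were lower (median -0.25, 1 at unadjusted p below 0.05), with wt 4 highest for 68, and the median was -0.01 without wt 4 and -0.41 without wt 3. With wt 1 and wt 2 kept, the respiratory median was -0.264 (0 of 75 higher) and the ribosomal median -0.186 (4 of 72 higher). Atp5k, of the ATP synthase, was at 140 CPM in wt 4, 66.5 to 94.9 CPM in the other wt and 52.5 to 92.3 CPM in het tumours. Rpl23, of the large ribosomal subunit, was at 343 CPM in wt 4, 169 to 208 CPM in the other wt and 128 to 191 CPM in het tumours.

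**Figure D4:**
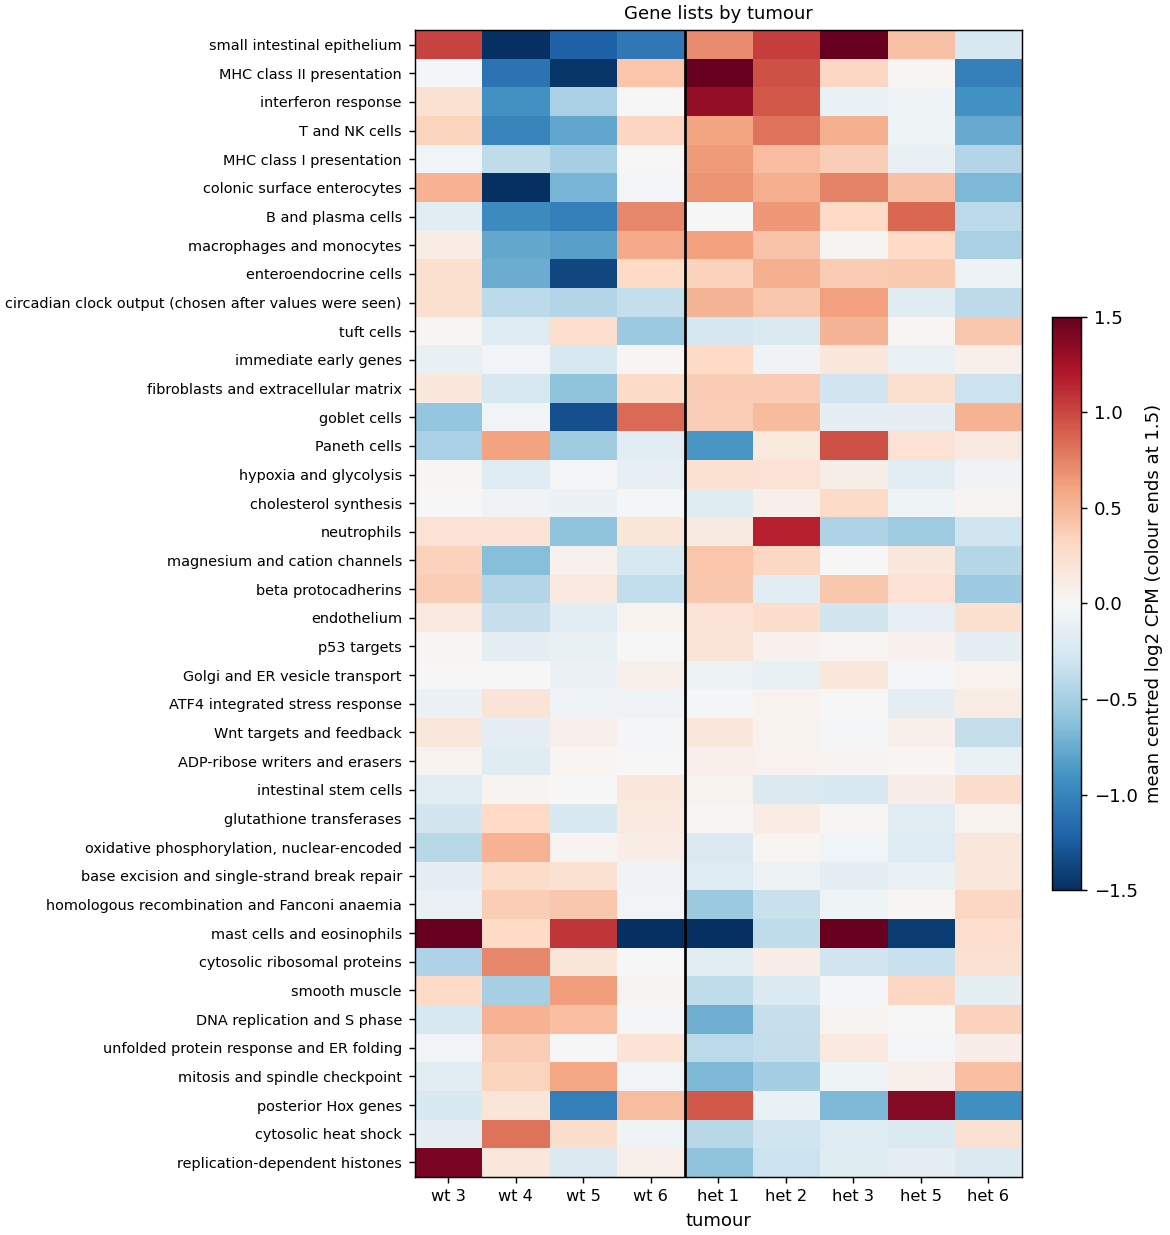
Mean centred log2 CPM of 40 gene lists (rows, ordered by median log2 fold change) in 4 wt and 5 het tumours (columns), with colour ending at 1.5. Wt 4 is low for the interferon, class II, macrophage and enterocyte lists and high for the ribosomal, respiratory, growth and chaperone lists, and het 1 and het 2 are low for the replication and mitosis lists.

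Enterocytes, the absorptive cells of the gut surface, carry the genes of the next list. Of 28 tested colonic surface enterocyte genes, 22 were higher in het tumours (median 0.39). At an unadjusted p below 0.05 by edgeR, 5 were higher and 0 lower, beside 4.31% and 3.02% of all genes tested. The list level was 0.44 to 0.74 in het 1, 2, 3 and 5 and -0.68 in het 6, and 0.52, -1.52, -0.70 and -0.03 in wt 3, 4, 5 and 6. Guca2b, the hormone uroguanylin, was at 149, 26.2, 27.1 and 44.4 CPM in wt and 157, 244, 362, 106 and 54.6 CPM in het tumours (log2 1.58). Its relative Guca2a, guanylin, was at 41.8 to 233 against 140 to 439 CPM (log2 0.999). The left-out wt 1 and wt 2 held 819 and 738 CPM of Guca2b and 349 and 134 CPM of Guca2a. With wt 1 and wt 2 kept, the list median was 0.07, and it was 0.25 without wt 4 and 0.72 without wt 6. Whether the choice of tumours by Gata4 shaped this list was not tested.

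Small intestinal epithelial genes are given only as a description. All but 1 of the 29 tested were higher in het tumours, with a median of 1.35, and with wt 1 and wt 2 kept the median was -0.60. Wt 4 was the lowest tumour for 22 of the 29 and het 3 the highest for 24. Lct, the lactase of the brush border, was at 0.343 to 2.41 CPM in wt tumours, 47.0 CPM in het 3, 19.3 CPM in het 6 and at most 3.61 CPM in the other het tumours. Apoa4, a lipid carrier of enterocytes, was at 320, 13.6, 144 and 86.6 CPM in wt and 678, 838, 1394, 191 and 558 CPM in het tumours. The kept tumours thus still differed among themselves in this programme.

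Other epithelial lists overlapped between the groups. Goblet cell genes, which make mucus, were higher for 12 of 16 (median 0.22, 0 at unadjusted p below 0.05), and Zg16 ranged from 41.8 to 602 CPM in wt and from 225 to 1107 CPM in het tumours. Leaving out wt 6 gave a goblet median of 0.68, leaving out wt 5 gave 0.02 and leaving out het 6 gave 0.01. The goblet median was -0.015 with wt 1 and wt 2 kept. Enteroendocrine genes were higher for 12 of 15 (median 0.36). With wt 1 and wt 2 kept, 5 of 15 were higher and the median turned to -0.54. When 1 tumour was left out, this median ran from 0.165 without wt 5 to 0.67 without wt 6, with 0.66 without wt 3 and 0.61 without het 6. Tuft cell genes were higher for 8 of 11 (median 0.32), but for 3 of 11 with wt 1 and wt 2 kept (median -0.17). The tuft median was 0.15 without wt 6, 0.19 without wt 4, 0.20 without het 6 and 0.21 without het 3. Paneth cell genes were higher for 9 of 15 (median 0.16, from -0.09 without het 6 to 0.57 without wt 4), led by the defensin Defa21 at 6.42 to 18.4 against 3.77 to 84.4 CPM. Near-identical defensin copies can share reads, so single members are uncertain.

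Wnt target and stem cell genes, the programme that Apc loss turns on, overlapped between the groups. Of 29 Wnt targets 14 were higher and 15 lower (median -0.01, 0 at unadjusted p below 0.05 by edgeR). Lgr5, the receptor that marks stem cells, was at 183, 166, 200.1 and 319 CPM in wt and 214, 135, 147, 236 and 140 CPM in het tumours (log2 -0.32, 95% interval -0.80 to 0.17). Of 18 stem cell genes 5 were higher (median -0.04), and Olfm4 reached 87.0 CPM in het 6 against 8.51 to 37.7 CPM in the other 8 tumours.

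Stromal lists were mixed. Fibroblast and matrix genes were higher for 33 of 46 (median 0.23, 1 at unadjusted p below 0.05), and wt 5 was the lowest tumour for 23. The fibroblast median was 0.05 without wt 5, 0.34 without wt 3, 0.15 without het 1, 0.13 without het 2 and 0.36 without het 3. It was 0.11 with wt 1 and wt 2 kept and -0.05 without het 1 and het 2. Smooth muscle genes were lower for 16 of 19 (median -0.27), led by Actg2, a smooth muscle actin, at 20.2 to 50.5 against 12.9 to 22.3 CPM (log2 -0.77). Wt 5 was highest for 12 of them, and the smooth muscle median was -0.06 without wt 5, -0.48 without wt 4 and -0.095 without het 1 and het 2. Endothelial genes were split, 17 of 29 higher (median 0.05). Mcpt2, a mast cell protease, ran from 13.7 to 349.7 CPM in wt and from 14.4 to 592 CPM in het tumours. Its highest level was in het 3 and its next in wt 3, and the groups overlapped almost wholly.

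Single genes with an interest of their own are given as values. Spp1, osteopontin, was at 57.7, 45.9, 78.2 and 46.6 CPM in wt and 44.7, 39.4, 30.03, 47.6 and 37.8 CPM in het tumours (log2 -0.52, 95% interval -1.07 to 0.04). Trpm6, the epithelial magnesium channel, was at 7.08 to 14.6 against 9.61 to 22.4 CPM (log2 0.69), with 4 of 5 het tumours above all wt tumours. Pcdhb11, a neuronal-type adhesion protein, was at 0.376 to 0.686 CPM in wt and 0.787 to 2.76 CPM in het tumours (log2 1.59, unadjusted p 0.00594, adjusted p 0.619 by edgeR), and its groups stayed apart with wt 1 and wt 2 added. Jund, an AP-1 factor, was at 211 to 237 against 255 to 308 CPM (log2 0.25), and Gosr2, a Golgi SNARE, at 88.2 to 102 against 103 to 118 CPM (log2 0.21), both without overlap. Both overlapped with wt 1 and wt 2 kept, Jund with a log2 difference of 0.17 and Gosr2 with one of -0.06. Me3 (log2 1.06), Gstm3 (log2 -0.54) and Bet1 (log2 -0.26) overlapped.

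Histone genes that are made during replication were lower for 33 of 35 (median -1.02). By edgeR, 16 of them had an unadjusted p below 0.05, beside 3.02% of all genes tested. Wt 3 was the highest tumour for 27 of the 35 and for each of those 16. Without wt 3 the median was -0.41. Their transcripts end without a poly(A) tail, as do Rpph1 and Rmrp, and the labels name both a total RNA kit and polyA RNA. Hist1h2ai was at 2.82, 1.12, 1.48 and 1.09 CPM in wt and 0.344 to 0.941 CPM in het tumours, without overlap until wt 1 and wt 2 were added.

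The balance between chromosomes was measured from the same counts, since a chromosome gained or lost in all cells of a tumour would move the median level of its genes. Over 11931 genes on 19 autosomes (318 to 1025 genes each), the median centred log2 level ran from -0.12 (wt 4, chromosome 18) to 0.09 (wt 4, chromosome 17). Before centring, a gain of 1 copy in every cell would give 0.585 if level followed copy number, and no median came near it. Each gene was centred on the mean of the wt and het means of these same tumours. A gain or loss that all of them shared would therefore not show, and the medians describe only differences between tumours. No chromosome had an exact permutation p below 0.05 between genotypes (two-sided, smallest 0.0873, 0.792 after Benjamini-Hochberg adjustment over the 19). The SD of the 19 medians, a measure of unevenness in a tumour, was 0.0256 ± 0.0162 in wt (SD, n = 4) and 0.0199 ± 0.00732 in het tumours (SD, n = 5), with an exact permutation p of 0.563. Gains in a small share of cells, and in cells that RNA of stroma dilutes, would not be visible at this scale.

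**Figure D5:**
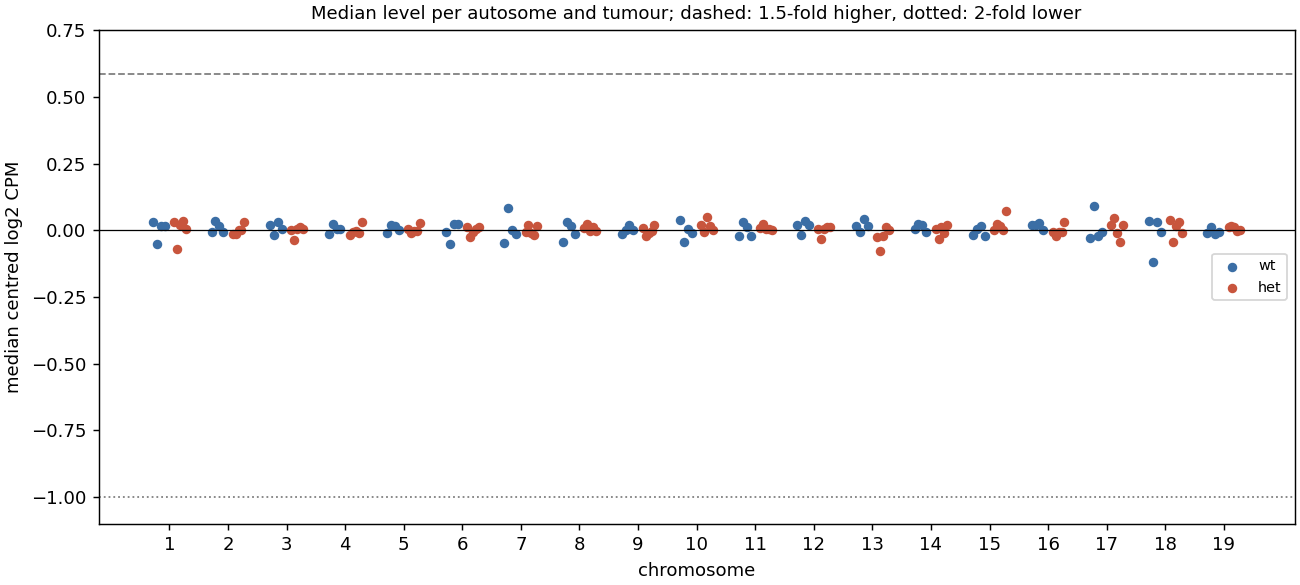
Median centred log2 CPM of each autosome in each tumour, blue for 4 wt and red for 5 het tumours, with a dashed line at the 1.5-fold level and a dotted line at 2-fold lower. All points lie between -0.12 and 0.09.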

How the data were processed

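RNA-seq of resected intestinal tumours was analysed from 2 tables that the authors deposited. The first holds counts, whole-number reads per gene for 24062 genes, and the second holds the authors' RPKM values, which divide reads by gene length and library size with TMM factors and served only to check the counts. The submitters' processing notes name mm10 as the genome and list Trimmomatic, TopHat, Subread 1.4.5-p1 and featureCounts. No source used here gives their options or the strand setting, and antisense neighbours can therefore share reads. Groups came from genotype and source labels, and the count table has a column for each sample.

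The deposited counts of 15 tumours (4 wt, 5 het, 6 hom) were fitted with edgeR 4.0.16 in R 4.3.3: filterByExpr, TMM factors, a robust quasi-likelihood model, the contrast het minus wt and Benjamini-Hochberg adjustment over 14392 genes at a threshold of 0.05. CPM values use the same factors, except where left-out tumours are shown, which use factors over all 18 libraries. Single values were compared with two-sided exact permutation tests over tumours. The model was tested on simulated counts. Named genes are the 10 with the smallest p in each direction (mean log2 CPM of at least 0, no predicted genes), a fixed set, and up to 4 members with the smallest p of each of 40 lists plus those without overlap. Irgm1, Ifit3 and Hsp90b1 are named for their promoters, and a few members such as Csf1r, Cd8a, Mcpt2 and Olfm4 illustrate their lists or were chosen after their values were seen. The members of the comparison and the lists were chosen with earlier results of these data known.

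No repeated library was found: the lowest chi-square per degree of freedom between library pairs was 20.3. No batch is named in the labels. Mouse numbers shared between genotypes were checked as pairs. Alternatives were other scalings, filters and tools (limma-voom of limma 3.58.1, DESeq2 1.42.0), the left-out wt tumours kept, the 9 tumours alone, and each tumour left out. Leaving out het 1 and het 2 together was chosen after seeing the data. Depth and the number of tumours limit precision. Results for a few genes are not reported here.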

Additional observations from a re-analysis of the deposited data

Results flagged for a closer look

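Of 154 groups of 4 or 5 tumours checked, 12 held a tumour far from the others of its group, and chance alone flags about 1 in 20. In wt 3, Rpph1 stood at 295 CPM and Rmrp at 267 CPM, and the list of non-polyadenylated RNAs at a mean centred log2 level of 6.29. Rmrp was low in het 1, at 1.08 CPM, below 2.17 to 2.51 CPM in the other het tumours. Tmem14a was high in het 5, at 13.2 CPM against 8.75 to 9.5 CPM in the other het tumours.

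Lists with a single distant tumour were the ATF4 response (0.20 in wt 4), ADP-ribose writers and erasers (-0.18 in wt 4 and -0.10 in het 6), neutrophils (-0.60 in wt 5) and clock genes (0.24 in wt 3), all as mean centred log2 levels. For colonic surface enterocytes het 6 stood apart at -0.68, against 0.44 to 0.74 in the other het tumours. The SD of chromosome medians was 0.0328 in het 2 and 0.0154 to 0.0185 in the other het tumours.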

How the results depend on the processing

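Of 706 refitted values of 34 named genes, 698 kept their direction and side of the threshold. DESeq2 called 1 gene where edgeR called 0, which is Cdx2. Cml1 turned to -0.16 and Flrt3 to -0.17 with wt 1 and wt 2 kept. Without het 1 and het 2, Cxcl9 turned to -1.36 and Mcpt2 to 0.36. When 1 tumour was left out, the Flrt3 log2 fold change ran from -0.025 (without wt 4) to 0.34, the Mcpt2 log2 fold change from -2.04 to 0.15 (without wt 3) and the Rmrp log2 fold change from -5.44 to 0.83 (without wt 3). The cause of these turns was not tested.

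The difference in Macrod2 level was -1.11 CPM with library totals only (exact permutation p of 0.0794), and it ran from -1.57 to -1.08 CPM when 1 tumour was left out, with exact permutation p of 0.0286 to 0.107. The difference in chromosome spread ran from -0.00965 to 0.00548 over these fits, the last without wt 4. Counts at an unadjusted p below 0.05 by edgeR ran from 371 without wt 4 to 2443 without wt 3, with 2210 without het 6, against 1055, and were 526 without wt 5, 598 without het 1, 649 without het 3, 539 without het 1 and het 2 together and 407 with wt 1 and wt 2 kept. With the 9 tumours alone the count was 729, of 13982 genes tested. Of 41 lists with a median, 17 kept its sign in all 21 alternatives. With library totals only, the median over all genes was 0.088.

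Numbered tumours of het and wt were not treated as pairs. The correlations of same-numbered deviations were 0.431, -0.138 and -0.151, and a model with the replicate number as a block called 0 genes, with 691 at an unadjusted p below 0.05.

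With 5 against 4 tumours, differences below about 0.362 on the log2 scale lay inside the median interval of well-read genes. That interval is not adjusted for the number of genes, so it is no limit for an adjusted p below 0.05. In the simulated counts, edgeR called 13.4% of 1.5-fold, 68.7% of 2-fold and 90.9% of 4-fold changes at that adjusted p. Macrod2 itself rests on fewer than 100 counts in each library.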

Other observations

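Core and output genes of the circadian clock were looked at together after Per1 was seen among the leading genes, so the list was chosen after values were seen. Of 16 clock genes tested, 13 were higher in het tumours (median log2 0.35), 4 of them at an unadjusted p below 0.05 by edgeR and 0 at an adjusted p below 0.05. The median was 0.22 without het 1, 0.18 without het 1 and het 2 and 0.09 with wt 1 and wt 2 kept. Dbp, a clock-driven transcription factor, was at 10.2, 4.65, 3.40 and 2.97 CPM in wt 3, 4, 5 and 6 and at 16.2, 18.2, 47.1, 3.19 and 2.47 CPM in het 1, 2, 3, 5 and 6. Its relative Tef was at 39.0, 17.3, 21.9 and 17.4 CPM in wt and at 72.2, 55.5, 76.1, 23.9 and 15.8 CPM in het tumours. Both were high in het 1, 2 and 3 and, among wt tumours, in wt 3. Arntl, the activator of the clock, had 9.52 to 23.4 CPM in wt and 12.3 to 29.1 CPM in het tumours, with its highest level in het 5. The hour at which tumours were taken is not given in the sources used here.

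Several genes outside the named lists also had separate groups and were picked after their values were seen. Trp53bp1, a repair factor at double-strand breaks, had a log2 difference of -0.26, and Dll1, a Notch ligand, one of 0.79. With wt 1 and wt 2 kept, these were -0.07 and -0.28 and the groups overlapped in both genes. Srf, the serum response factor, was higher by 0.20 on the log2 scale with wt 1 and wt 2 kept, and its groups stayed apart there.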
